A study of Mus musculus with 6 samples.

Results

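The genes described here decide whether a cell that receives tumour necrosis factor (TNF) survives or dies. The 10 members were taken from a list of names, drawn up when earlier results of these data were known, and were looked up by gene symbol in the deposited gene tables: Ripk1, Ripk3, Mlkl, Casp8, Fadd, Cflar, Birc2, Birc3, Zbp1 and Cyld. All 10 were found among 21675 genes, and all 10 were among the 12729 genes that had enough reads to be tested. Their 150 splicing nodes, out of 323775 in the series, were described too. A splicing node is a stretch of a gene bounded by neighbouring splice sites or by transcript starts or ends.

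RNA was sequenced from a mouse aortic cell line, labelled aortic endothelial and Fn AB+/-, that carried SV40 under doxycycline control. Cells were expanded with doxycycline and taken off it before plating, in all groups. The groups were a CRISPR knockout of the splicing repressor Ptbp1 (KO) with and without TNF, the same knockout given a human PTBP1 cDNA (Rescue) with and without TNF, and the unedited line (WT) with and without TNF. TNF was given at 30 ng/mL, and each of the 6 groups had 1 library, so that the series holds no replicates. The knockout was 1 clone, and in KO against WT what is peculiar to that clone cannot be told apart from the loss of Ptbp1. Rescue came from the same knockout and is given beside it, but the part of the clone in the results was not tested.

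For 4 of 6 libraries the label and the names of the deposited files give different groups. The libraries named KO_TNF and KO are labelled WT_TNF and Rescue. Those named Rescue_TNF and Rescue are labelled Rescue_TNF and KO_TNF. Those named WT_TNF and WT, where the file names read basal for WT, are labelled KO and WT. Results are given for the groups that the file names read, and "named KO" and the like refer to those names. The labels' groups are taken up once, near the end.

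As background, TNF binding brings Ripk1 to its receptor, where the ubiquitin ligases Birc2 and Birc3 modify it and hold the cell in a survival state driven by NF-kB. When ubiquitin is lost, for example through the deubiquitinase Cyld, Ripk1 can join Fadd and Casp8 and trigger apoptosis, which Cflar restrains. Where Casp8 is not active, Ripk1 or the nucleic acid sensor Zbp1 can engage Ripk3, which phosphorylates Mlkl, and Mlkl then ruptures the plasma membrane in a form of death called necroptosis.

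Each library held 19598773 to 21626838 estimated reads assigned to genes by RSEM. Transcript levels are in TPM, transcript abundance scaled for gene length and library size. Intervals printed beside levels are 95% counting intervals, which cover counting error only. Mouse Ptbp1 itself was at 275 and 266 TPM in the libraries named KO_TNF and KO, at 129 and 127 TPM in those named Rescue_TNF and Rescue, and at 270 and 236 TPM in those named WT_TNF and WT, so its RNA level was not low in the named KO libraries. Its paralogue Ptbp2, which Ptbp1 represses, was at 106 and 127.9 TPM in the libraries named KO_TNF and KO, at 45.3 and 42.2 TPM in those named Rescue_TNF and Rescue, and at 20.7 and 22.8 TPM in those named WT_TNF and WT. The chemokine gene Ccl2, a TNF target, was at 1138 to 6017 TPM in the libraries named TNF and at 105 to 169 TPM in the others. The levels of both genes followed the file names and went against the labels. TNF raised 7 of 7 target genes taken as a check, with a median log2 change of 3.01. Of the endothelial markers, 12 were measured and they summed to 1.08 to 21.6 TPM per library, with Cldn5 at 0 in every library. Most of the highest sum, in the library named WT_TNF, was Ecscr at 18.7 TPM. Smooth muscle and fibroblast markers, 10 of 10 measured, summed to 4845 to 11300 TPM. Col1a1, at 2569 to 6220 TPM, and Col1a2, at 1254 to 3955 TPM, made up most of this. The smooth muscle gene Myh11 was at 0.04 to 0.30 TPM. Epithelial markers, of which 5 were measured, summed to 0.96 to 45.47 TPM, mostly Krt19. Blood and macrophage markers, of which 6 were measured, summed to 11.01 to 30.06 TPM per library. Most of that sum was Cd68, at 10.32 to 29.28 TPM, and Csf1r was at 0.36 to 0.72 TPM. Itgam was at 0.06 TPM or less, and Ptprc, Tyrobp and Cd3e were at 0 throughout. In such bulk RNA, fewer cells of a type and less RNA per cell cannot be told apart.

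**Figure D1:**
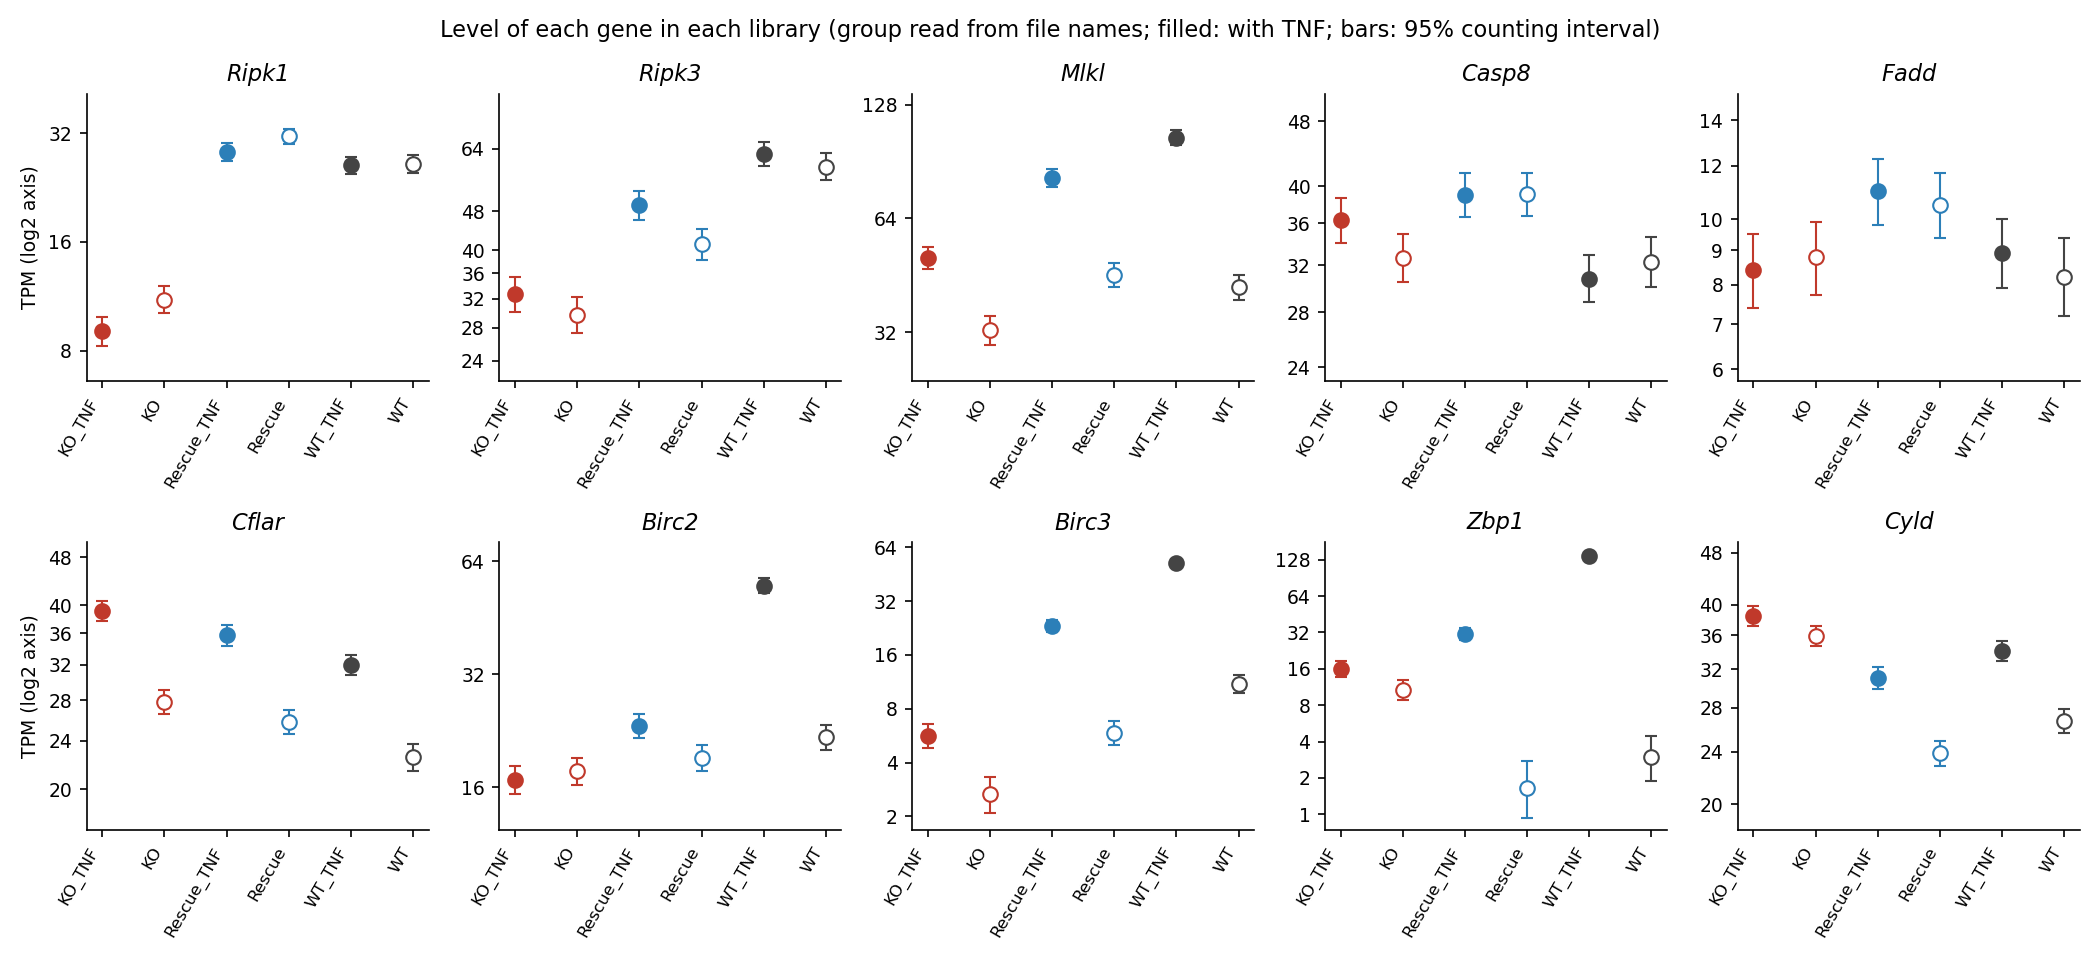
Level of each of the 10 genes in TPM (vertical axis, log scale) in the 6 libraries, ordered by the group that the file names read (horizontal axis). Filled points are libraries with TNF, open points are libraries without it, and bars are 95% counting intervals. Ripk1 was lower in both libraries named KO than in any other, and Zbp1 was far higher in the library named WT_TNF than in the rest.

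Genotype and TNF entered 1 additive model in edgeR, whose quasi-likelihood test was run on all genes, and a change was called at a Benjamini-Hochberg adjusted p under 0.05. Fold changes are log2 values, followed by ± a standard error derived from the test. With 1 library per group, the test weighs an effect by its differences between the levels of the other factor, and not by a spread between cultures. It also draws on such differences over all genes tested, so that a p-value does not rest on the values of 1 gene alone.

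TNF raised 5 of the 10 genes over the 3 genotypes and lowered 0 of them: Birc3, Mlkl, Cflar, Cyld and Ripk3 rose. Across all genes tested 22.0% were called in either direction and 11.2% were called higher. The median log2 change was 0.48 over the 10 genes and -0.01 over all genes tested. The calls of Birc3, Mlkl and Cflar ended when the library named Rescue_TNF or the one named Rescue was left out. Nearly all calls of the series ended in those fits, so this cannot show that the 3 changes depended on a Rescue library. Their log2 values were then 1.84 and 1.85 for Birc3, 1.08 and 1.08 for Mlkl, and 0.60 and 0.60 for Cflar. The call of Cyld ended there too and also without the library named WT_TNF or the one named WT. That of Ripk3 ended whichever of the 6 was left out. Smooth muscle and fibroblast markers moved with TNF as well: 6 of 10 fell and 1 rose, with a median log2 change of -0.67. Their summed level was 6609, 4845 and 5887 TPM in the libraries named KO_TNF, Rescue_TNF and WT_TNF, against 10300, 10790 and 11300 TPM in those named KO, Rescue and WT. Their part in the TNF results was not tested.

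Loss of Ptbp1, as named, was accompanied by lower RNA of 4 genes, namely Ripk1, Ripk3, Mlkl and Birc3, and by higher RNA of Cflar. Of all genes tested 33.0% were called in this comparison, 16.3% of them lower and 16.8% higher, where the shares are of all genes tested. The median was -0.85 over the 10 genes and 0.00 over all genes. The calls of Ripk1, Ripk3 and Birc3 held with each of the 6 libraries left out in turn. Markers of dividing cells also rose in the named KO libraries against the named WT libraries, and all 5 of 5 passed the test with a median log2 change of 1.52. Their summed level was 523 and 565 TPM in the libraries named KO_TNF and KO, 473 and 492 TPM in those named Rescue_TNF and Rescue, and 176 and 233 TPM in those named WT_TNF and WT. In the same comparison 4 of 10 smooth muscle and fibroblast markers fell and 0 rose (median -0.54). Of 6 tested endothelial markers, 3 fell and 0 rose (median -2.19). Endothelial levels were low apart from Ecscr in the library named WT_TNF, at 18.7 TPM. Of the 7 TNF target genes taken as a check, 3 fell and 0 rose (median -1.73). The part of these markers in the results for the 10 genes was not tested.

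Adding back human PTBP1 raised 3 genes against KO, namely Ripk1, Birc3 and Ripk3, and lowered Cyld, against 20.4% of all genes tested that were called (9.79% higher and 10.6% lower). These 4 calls ended when the library named Rescue_TNF or the one named Rescue was left out. All other calls of the series ended in those fits too, also in Rescue against WT. Such a lost call thus cannot show that a change depended on the library left out. The log2 values were then 1.49 and 1.46 for Ripk1, 1.40 and 1.63 for Birc3, 0.37 and 0.50 for Ripk3, and -0.61 and -0.49 for Cyld. Against WT, the Rescue libraries had lower Ripk3 and Birc3, which makes 2 of 10 genes, against 24.6% of all genes tested. The share called among the 10 genes was thus near that of all genes in this comparison. Set against WT, the 5 markers of dividing cells rose in the named Rescue libraries as well, with a median of 1.07.

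**Figure D2:**
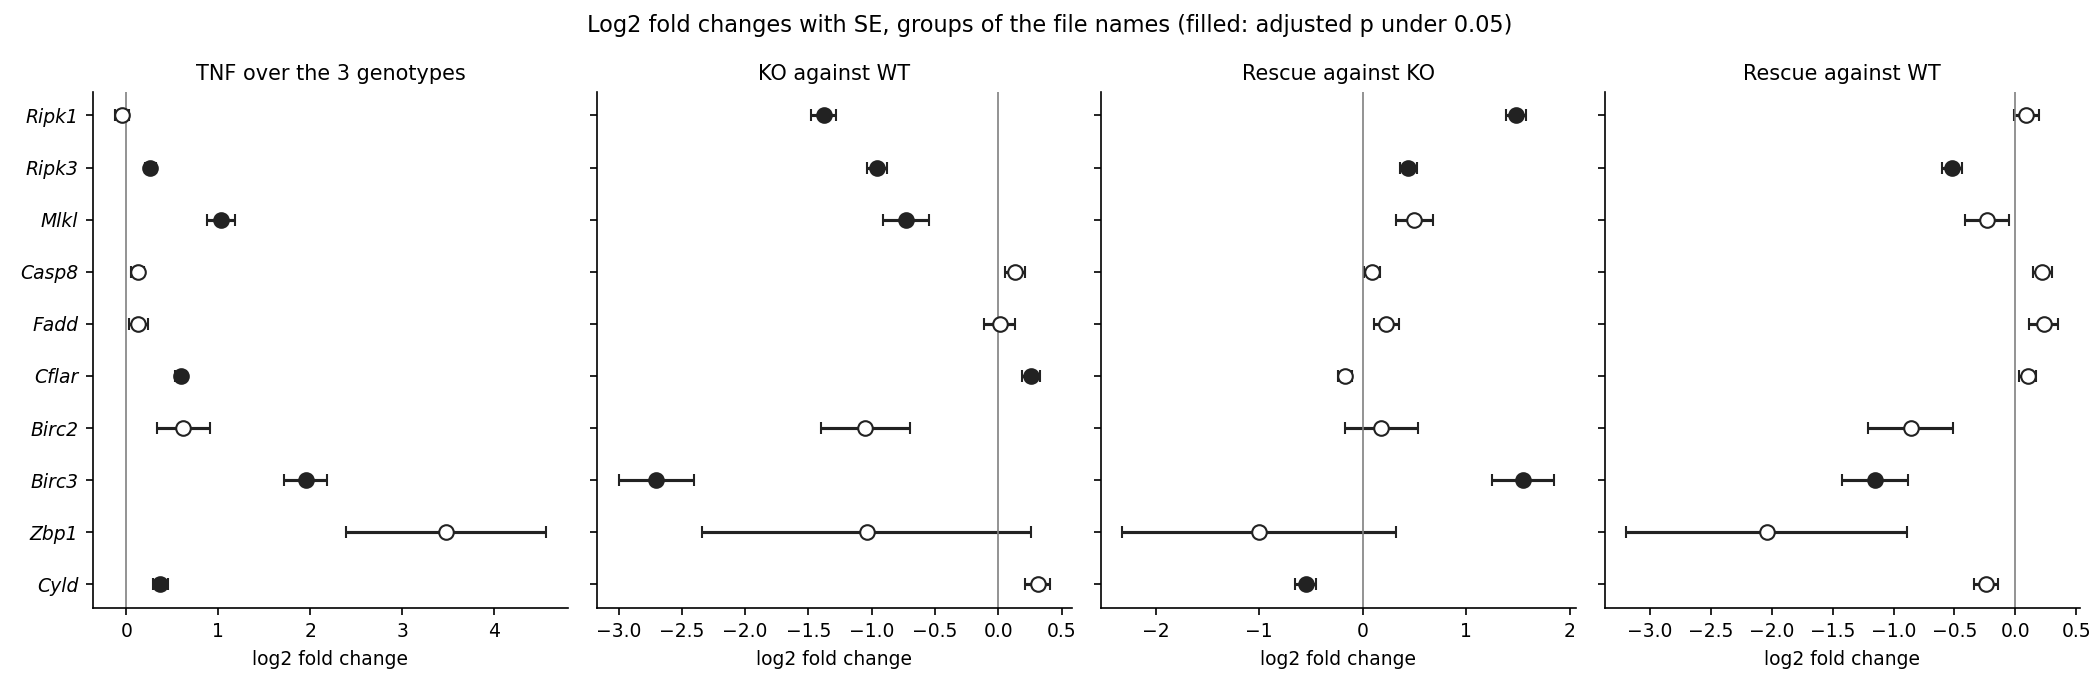
Log2 fold change of each gene in the 4 comparisons of the file-name groups, with bars of 1 standard error derived from the edgeR test. Filled points passed an adjusted p of 0.05. Birc3 moved furthest among the called genes in the comparison of KO with WT, at -2.70, and Zbp1 has the widest bars.

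Ripk1, the kinase and scaffold at the head of the pathway, lies at chr13:34002363-34037147 on the plus strand (all coordinates are GRCm38). It had 9.04 TPM (8.21 to 9.93) and 11.1 TPM (10.1 to 12.1) in the libraries named KO_TNF and KO, 28.4 and 31.3 TPM in those named Rescue_TNF and Rescue, and 26.1 and 26.2 TPM in those named WT_TNF and WT. Both libraries named KO were low and did not overlap with the other 4, while Rescue and WT differed little. Ripk1 fell by 1.38 ± 0.10 in KO against WT (edgeR adjusted p = 0.00277) and rose by 1.48 ± 0.10 in Rescue against KO (edgeR adjusted p = 0.00495). The difference of Rescue from WT was 0.09 ± 0.10 (edgeR adjusted p = 0.52), and that of TNF was -0.05 ± 0.08 (edgeR adjusted p = 0.686). Its most abundant transcript in the second quantification had 7.4 and 8.2 TPM in the libraries named KO_TNF and KO and 23.9 to 26.0 TPM in the others.

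Ripk3, the kinase that phosphorylates Mlkl, lies at chr14:55784995-55788865 on the minus strand. It had 32.7 and 29.7 TPM in the libraries named KO_TNF and KO, 49.3 and 41.1 TPM in those named Rescue_TNF and Rescue, and 62.6 and 59.0 TPM in those named WT_TNF and WT. The 3 genotypes did not overlap, with KO lowest, Rescue between and WT highest. Ripk3 fell by 0.96 ± 0.08 in KO against WT (edgeR adjusted p = 0.00323), rose by 0.44 ± 0.08 in Rescue against KO (edgeR adjusted p = 0.0266) and was lower by a log2 value of -0.52 ± 0.08 in Rescue against WT (edgeR adjusted p = 0.0139). The call of Rescue against KO also ended without the library named KO_TNF, and that of Rescue against WT ended without the library named Rescue_TNF, Rescue, WT_TNF or WT. With TNF it was higher by 0.26 ± 0.06 (edgeR adjusted p = 0.0478). Its profile over the 6 libraries was most like those of Mbtd1, Csnk1a1 and D730001G18Rik (Pearson r of 0.994, 0.993 and 0.991 on log2(TPM + 1)).

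Mlkl, the pseudokinase that carries out necroptosis, lies at chr8:111311797-111338177 on the minus strand. It had 50.2 and 32.3 TPM in the libraries named KO_TNF and KO, 82.0 and 45.4 TPM in those named Rescue_TNF and Rescue, and 104.6 and 42.0 TPM in those named WT_TNF and WT. In each genotype the library with TNF was higher than the one without, and with TNF the order was KO, then Rescue, then WT. Without TNF, the named KO library was lowest, and those named Rescue and WT had overlapping counting intervals (42.2 to 48.7 TPM and 38.9 to 45.4 TPM). Over genotypes, TNF raised Mlkl by 1.03 ± 0.15 (edgeR adjusted p = 0.0158). KO against WT was -0.73 ± 0.18 (edgeR adjusted p = 0.0359), a call that ended without the library named KO_TNF, Rescue_TNF, Rescue or WT_TNF and in the second quantification. Rescue against KO was 0.50 ± 0.18 and did not pass (edgeR adjusted p = 0.108). The Mlkl profile was most like those of Dcn, Gpr176 and Il15ra, with r of 0.994, 0.992 and 0.99 over 6 libraries.

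Mlkl also differed in how its RNA was spliced. Exon 9 of 11 of the transcript Mlkl-202, a cassette exon of 50 nt at chr8:111315493-111315542, is shown with 30 bases of the neighbouring exon on each side, 5′ to 3′ on the coding strand, because its skipping set the named KO libraries apart. The sequences were read from GENCODE vM21 transcripts (GRCm38), and capitals mark the exon.
Mlkl exon included: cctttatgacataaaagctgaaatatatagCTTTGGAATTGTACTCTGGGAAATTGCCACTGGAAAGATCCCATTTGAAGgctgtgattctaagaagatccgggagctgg
Mlkl exon skipped: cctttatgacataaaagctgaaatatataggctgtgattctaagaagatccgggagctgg

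The share of transcripts that include this exon, called psi, was 0.625 (0.543 to 0.709, 140 estimated reads) in the library named KO_TNF and 0.461 (0.346 to 0.571, 81 reads) in the one named KO. It was 0.946 and 0.965 in those named Rescue_TNF and Rescue, and 0.955 and 0.958 in those named WT_TNF and WT. Both named KO libraries lay below the other 4 without overlap of the counting intervals. Junction reads that join exon 8 to exon 10 numbered 19 and 19 in the libraries named KO_TNF and KO, 6 and 2 in those named Rescue_TNF and Rescue, and 7 and 2 in those named WT_TNF and WT. This skipping junction is not in the GENCODE release. Of 42 junctions of the 10 genes that are not annotated, it was the only one with at least 10 reads in a library. Set against the mean of the 2 junctions that include the exon, it made up 24.5% and 39.6% of the reads in the libraries named KO_TNF and KO, against 3.51% to 5.41% in the other 4. In both named KO libraries this is less skipping than the deposited psi and its interval give, whereas in the other 4 the measures were close. The size of the difference thus depends on the measure, and the cause was not tested.

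The mean psi of the Mlkl exon was lower by a difference of -0.413 in KO against WT and higher by 0.412 in Rescue against KO. In the planned limma fit, which gives every library equal weight, neither difference passed (limma adjusted p = 0.422 and 0.443), and 0 of 32461 nodes of the series passed in any of these comparisons (0.0%). At an unadjusted p under 0.05 that fit counted 2324 nodes in KO against WT, 4 of them among the 36 tested nodes of the 10 genes. The planned fit did not recover changes put into simulated data, so its lack of calls cannot decide whether psi differed. A fit that weights each library by its reads was added after that, with the data seen. In it the exon was called in KO against WT (limma adjusted p = 1.92e-07) and in Rescue against KO (limma adjusted p = 3.86e-06), as 1 of 36 nodes of the 10 genes in each, against 1.68% and 1.51% of all nodes. With any library left out, the psi difference ranged from -0.501 to -0.326 and from 0.325 to 0.5. The weighted fit then no longer called the exon. Calls became rare over all nodes in those fits, which have fewer residual degrees of freedom. The lost call thus cannot decide whether the difference rested on 1 library. TNF against untreated differed by 0.047 and did not pass (limma adjusted p = 0.814 in the weighted fit, which called 0.191% of all nodes and 0 of the 36).

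The length of the exon leaves a remainder of 2 on division by 3, so that its loss shifts the reading frame. In Mlkl-202 the full reading frame has 464 codons, and the exon begins in codon 384. Without it, the frame as computed from the annotation runs for 385 codons and ends at a stop 134 nt before the last exon junction.

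**Figure D3:**
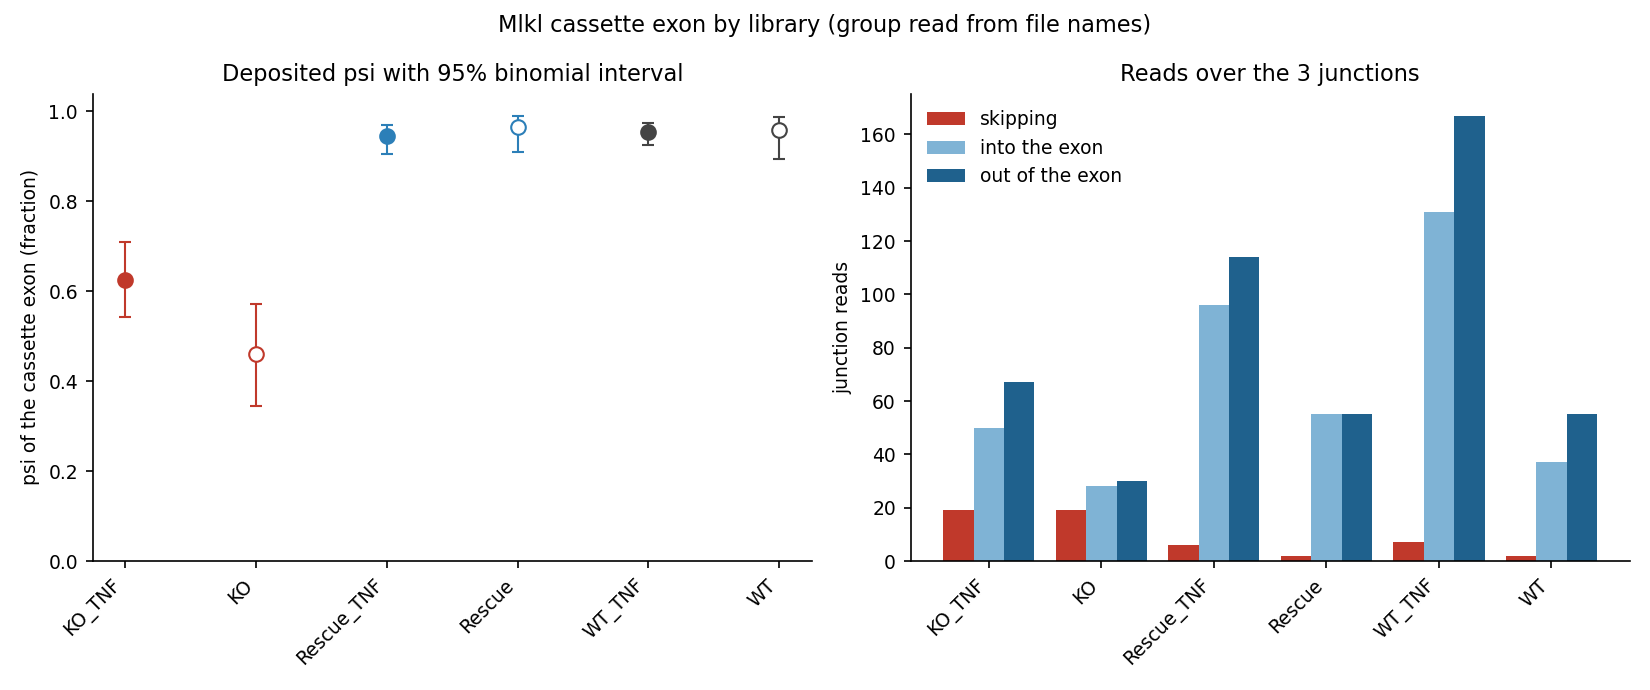
Psi of the 50-nt Mlkl exon (a fraction, with 95% counting intervals) and the number of reads on the junction that skips it, in the 6 libraries by file name. The libraries named KO_TNF and KO were at 0.625 and 0.461, and the other 4 were at 0.946 to 0.965.

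Among the 150 nodes, 105 had at least 10 reads in every library, and in 16 of these psi varied by at least 0.1. A 77-nt exon part of Ripk1 (chr13:34021381-34021457) was at 0.852 (0.733 to 0.942, 50 reads) in the library named KO and at 1.00 in the other 5. A 106-nt exon part of Cflar (chr1:58729056-58729161) was at 0.833 and 0.873 in the libraries named KO_TNF and KO, 0.884 and 0.874 in those named Rescue_TNF and Rescue, and 0.879 and 0.980 in those named WT_TNF and WT, so that the library named WT stood alone. Neither passed in either fit with all 6 libraries. A pair of neighbouring Birc2 parts was lowest in the library named Rescue_TNF, at 0.887 and 0.829, and did not pass. Most of the other variable nodes were transcript ends, which were not tested. The Casp8 end nodes varied most among those longer than 10 nt: the more upstream of them was at 0.712 in the library named Rescue_TNF, 0.329 in that named WT_TNF, 0.268 in that named KO and 0.00 in the other 3.

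Among the genes of the apoptotic branch, Casp8 and Fadd varied little. Casp8, the initiator caspase at chr1:58795374-58847503 on the plus strand, had 36.4 and 32.7 TPM in the libraries named KO_TNF and KO, 39.0 and 39.1 TPM in those named Rescue_TNF and Rescue, and 30.8 and 32.3 TPM in those named WT_TNF and WT. Fadd, the adaptor that recruits Casp8 (chr7:144577318-144582463, minus strand), had 8.41 and 8.78 TPM in the libraries named KO_TNF and KO, 10.99 and 10.5 TPM in those named Rescue_TNF and Rescue, and 8.91 and 8.23 TPM in those named WT_TNF and WT. Neither gene passed in any of the 4 comparisons. Their largest log2 differences were 0.22 ± 0.08 for Casp8 and 0.23 ± 0.12 for Fadd. That of Casp8 was in Rescue against WT (edgeR adjusted p = 0.116). That of Fadd was the same in Rescue against WT and in Rescue against KO (edgeR adjusted p = 0.202 and 0.218).

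Cflar, the caspase-like protein that restrains Casp8, lies next to it at chr1:58711508-58758884 on the plus strand. It had 39.2 and 27.8 TPM in the libraries named KO_TNF and KO, 35.8 and 25.8 TPM in those named Rescue_TNF and Rescue, and 31.96 and 22.6 TPM in those named WT_TNF and WT. Every library with TNF was above every library without, and within each treatment KO was highest and WT lowest. TNF raised Cflar by 0.59 ± 0.06 (edgeR adjusted p = 0.00954), with single-pair log2 ratios of 0.56 in KO, 0.56 in Rescue and 0.65 in WT. The call of KO against WT was smaller (0.26 ± 0.07, edgeR adjusted p = 0.0421) and ended whichever of the 6 libraries was left out, and also with DESeq2 (its size factors or its test) or no filter on low counts.

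Birc3, an inhibitor-of-apoptosis ubiquitin ligase that NF-kB induces, lies at chr9:7848699-7873186 on the minus strand. It had 5.64 TPM (4.82 to 6.57) and 2.66 TPM (2.10 to 3.33) in the libraries named KO_TNF and KO, 23.4 and 5.86 TPM in those named Rescue_TNF and Rescue, and 52.4 and 11.03 TPM in those named WT_TNF and WT. TNF went with a higher level in every genotype, and the named KO library with TNF was below the named WT library without it. TNF raised it by 1.95 ± 0.23 (edgeR adjusted p = 0.0116). Birc3 fell by 2.70 ± 0.30 in KO against WT (edgeR adjusted p = 0.00555) and rose by 1.55 ± 0.30 in Rescue against KO (edgeR adjusted p = 0.0296). Rescue remained below WT, by a log2 difference of -1.15 ± 0.27 (edgeR adjusted p = 0.0376), a call that ended without the library named Rescue_TNF, Rescue or WT_TNF. Mtdh, Acvrl1 and Polm had the most similar profiles (r of 0.996, 0.996 and 0.995 over 6 libraries).

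Birc2, its neighbouring paralogue (chr9:7818227-7837064, minus strand), had 16.8 and 17.6 TPM in the libraries named KO_TNF and KO, 23.4 and 19.2 TPM in those named Rescue_TNF and Rescue, and 55.1 and 21.8 TPM in those named WT_TNF and WT. The library named WT_TNF stood apart from the other 5. With all 6 libraries no comparison of Birc2 passed: TNF gave 0.62 ± 0.29 (edgeR adjusted p = 0.173), and KO against WT gave -1.05 ± 0.35 (edgeR adjusted p = 0.0771, and 0.0106 with DESeq2). TNF passed once the library named KO_TNF or the one named KO was left out, at 0.93 and 0.92, and was 0.19 and 0.18 without the library named WT_TNF or the one named WT. KO against WT passed without the library named WT (-1.65) or the one named KO (-1.50), and was -0.36 without the one named WT_TNF and -0.58 without the one named KO_TNF. Rescue against WT was -0.86 ± 0.35 (edgeR adjusted p = 0.133) and ranged from -1.44 to -0.16 with 1 library left out, passing without the library named KO_TNF, KO or WT. How reads shared by Birc2 and Birc3 were divided is not given in the sources used here. Steap4, Syt1 and Gm5077 were most like Birc2, with r of 0.997, 0.991 and 0.99.

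Cyld, which removes ubiquitin chains from Ripk1 (chr8:88697028-88751945, plus strand), had 38.5 and 35.9 TPM in the libraries named KO_TNF and KO, 31.1 and 23.9 TPM in those named Rescue_TNF and Rescue, and 34.1 and 26.8 TPM in those named WT_TNF and WT. It was highest in KO under both treatments. With TNF it rose by 0.37 ± 0.08 (edgeR adjusted p = 0.0351), and in Rescue against KO it fell by 0.55 ± 0.10 (edgeR adjusted p = 0.0265). KO against WT was 0.31 ± 0.10 and did not pass (edgeR adjusted p = 0.0679).

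Zbp1, the sensor of Z-form nucleic acid that is induced by interferon and engages Ripk3, lies at chr2:173206612-173218923 on the minus strand. It had 15.98 TPM (13.7 to 18.5) and 10.7 TPM (8.86 to 12.9) in the libraries named KO_TNF and KO, 31.3 TPM (27.9 to 34.9) and 1.66 TPM (0.929 to 2.74) in those named Rescue_TNF and Rescue, and 137 TPM (130 to 143) and 2.97 TPM (1.90 to 4.42) in those named WT_TNF and WT. Without TNF the named KO library was above those named Rescue and WT, and with TNF it was below both. The low values rest on 15 estimated reads in the library named Rescue and 24 in the one named WT.

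As ratios of single libraries, which carry no test, TNF went with a fold change of Zbp1 of 1.60 in KO, 20.5 in Rescue and 62.4 in WT. KO over WT was -3.17 on the log2 scale with TNF and 2.12 without it. In the additive model Zbp1 did not pass, with TNF at 3.48 ± 1.09 (edgeR adjusted p = 0.0787, and 0.00991 with DESeq2) and KO against WT at -1.04 ± 1.3 (edgeR adjusted p = 0.567). Without the library named KO_TNF that second value was 1.77 (edgeR adjusted p = 0.0119), and without the one named KO it was -3.11 (edgeR adjusted p = 0.000696). TNF passed without the library named KO_TNF or the one named KO, at 5.55 and 5.54, and was 2.19 and 2.10 without the one named WT_TNF or WT (edgeR adjusted p = 0.197 and 0.179). Single libraries thus decided these values of Zbp1.

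The TNF responses were compared directly by giving that of KO a separate term, set against Rescue and WT together. The term of Zbp1 was -4.87 ± 0.44 (edgeR adjusted p = 0.00364, and 8.11e-11 to 0.0442 over the alternatives). Zbp1 was the 1 gene of 10 that passed, against 1.37% of all genes tested. The model leaves 1 residual degree of freedom, the difference of the response between Rescue and WT, which for Zbp1 were not alike. The p-value rests largely on what edgeR draws from all genes, and not on that 1 difference alone. Birc3 had a term of -1.07 ± 0.26 and Birc2 of -0.92 ± 0.38, and neither passed (edgeR adjusted p = 0.113 and 0.448). Of the 7 TNF target genes taken as a check, 3 had a lower TNF response in KO by the same term, namely Nfkbia (-1.73 ± 0.15), Ccl2 (-1.72 ± 0.21) and Vcam1 (-1.46 ± 0.15), and the median over the 7 was -1.66. For Mlkl it was -0.47 ± 0.22 (edgeR adjusted p = 0.542).

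**Figure D4:**
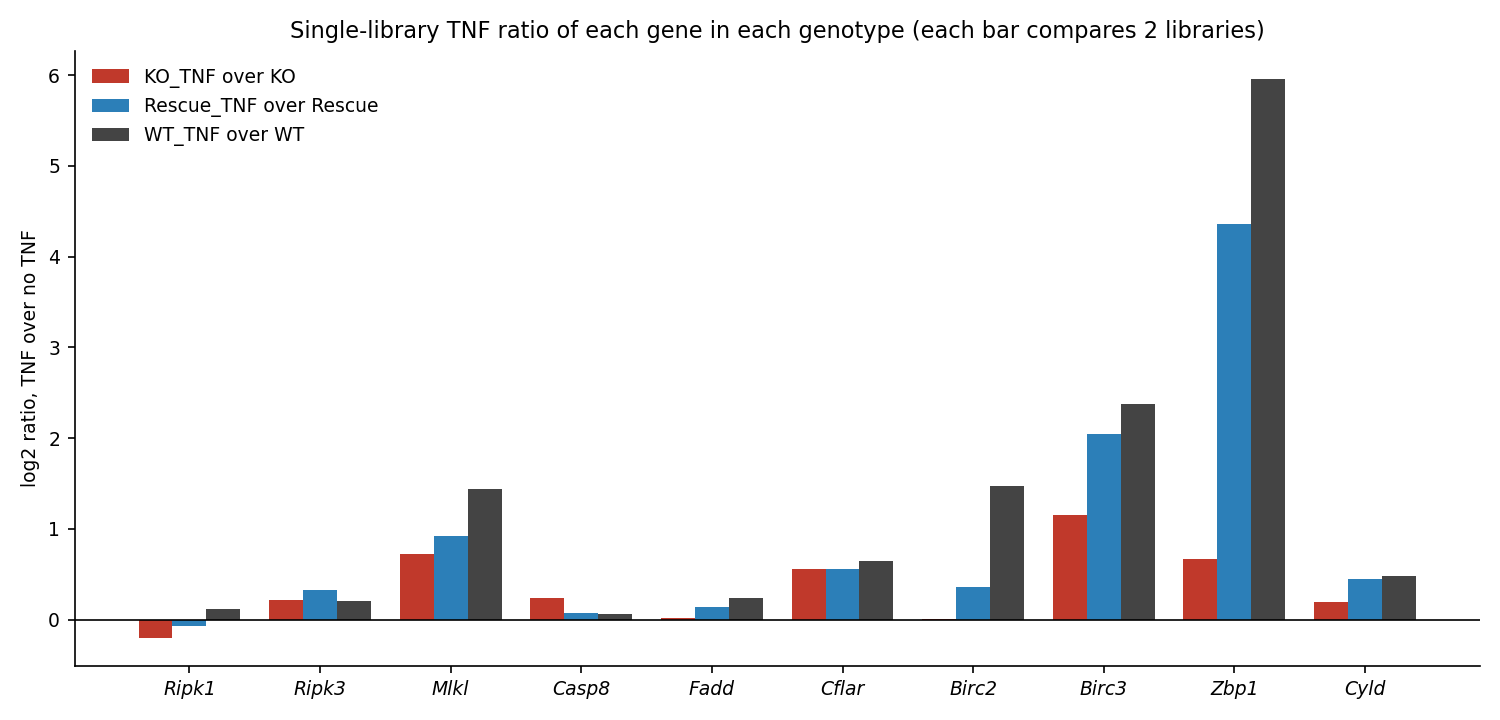
Log2 ratio of the library with TNF over the one without it, for each of the 10 genes, in the genotypes KO, Rescue and WT as named, as single-library ratios with no test. Zbp1 was at 0.67 in KO, 4.36 in Rescue and 5.96 in WT, and Birc2 at 0.01, 0.36 and 1.47.

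Genes that were at least 2-fold higher with TNF in a single pair numbered 1 of 10 in KO (Birc3), 2 of 10 in Rescue (Birc3 and Zbp1) and 4 of 10 in WT (Birc2, Birc3, Mlkl and Zbp1). Over all genes the shares were 2.77% in KO, 4.38% in Rescue and 5.77% in WT. Ripk1, Ripk3, Casp8, Fadd, Cflar and Cyld lay between -0.20 and 0.65 in every genotype. The Zbp1 profile over the 6 libraries was most like those of Psme2, Tapbp and Gbp5, with r of 0.995, 0.99 and 0.99, and 46 of 12728 genes had r above 0.95. For Ripk1 this number was 203, with 0910001L09Rik, Cno and Spag9 most alike (r of 0.999 each). These correlations rest on 6 points that share genotypes and treatments and are given as a description.

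The other genes of the TNF receptor complex, its ubiquitin machinery and related death pathways were examined as lists, and their counts are to be read against the shares of all genes called that are given above. Without the library named Rescue_TNF or the one named Rescue, 3 of all genes tested were called for TNF and 0 in Rescue against KO or against WT, so that each call on a list in these Rescue comparisons ended there. Of 25 genes of that complex tested, TNF raised 6 and lowered 0 (median 0.15), among them the ubiquitin editor Tnfaip3 (2.32 ± 0.42, edgeR adjusted p = 0.0245), its partner Tnip1 (1.59 ± 0.37, edgeR adjusted p = 0.0409) and Spata2, which recruits Cyld (0.51 ± 0.10, edgeR adjusted p = 0.0292). In KO against WT, 1 was higher, Ube2l3, and 2 were lower, Tnip2 at -0.66 and Tab2 at -0.27 (median -0.12), a smaller share than the 33.0% of all genes. Both TNF receptor genes fell in Rescue, with Tnfrsf1b at -0.78 and Tnfrsf1a at -0.32 against KO, and at -0.66 and -0.52 against WT. The TNF response of KO was smaller for Tnip1 (-1.63 ± 0.19, edgeR adjusted p = 0.00847) and the kinase Ikbke (-1.56 ± 0.20, edgeR adjusted p = 0.0129).

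Of 19 caspases, gasdermins and their inhibitors tested, TNF raised 5 and lowered 0 (median 0.13), including Casp4 (2.36 ± 0.33), Gsdmd (1.05 ± 0.23) and Casp1 (1.01 ± 0.22), all of which act in pyroptosis. In KO against WT 4 rose and 5 fell (median -0.09). Casp1 fell by 3.76 ± 0.30 and Casp4 fell by 2.78 ± 0.41, whereas Birc5, which also acts in cell division, rose by 1.05 ± 0.13 (edgeR adjusted p = 0.0031, 0.0102 and 0.00693). Casp1 had 3.41 and 3.30 TPM in the libraries named KO_TNF and KO, 29.7 and 12.6 TPM in those named Rescue_TNF and Rescue, and 64.8 and 31.4 TPM in those named WT_TNF and WT. The genotypes of Casp1 were thus ordered as those of Ripk3 and Birc3, with KO lowest and WT highest for each treatment.

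Of 14 Bcl-2 family genes, TNF lowered 1, the pro-apoptotic Bmf (-2.0 ± 0.19), and raised 0 (median 0.16). KO against WT gave 1 higher, Bok (1.34 ± 0.11), and 2 lower, Bmf (-1.88 ± 0.23) and Pmaip1 (-1.13 ± 0.22), with a median of 0.02. Of 6 death receptors and ligands, TNF raised 4 and lowered 0 (median 0.53), including Fas (1.55 ± 0.39), Tnfrsf21 (1.40 ± 0.29) and Tnfrsf12a (0.75 ± 0.13). The level of Tnfrsf21 was low throughout, at 0.45 to 3.63 TPM. Of 18 nucleic acid sensors and partners of Ripk1, Ripk3 and Zbp1, TNF raised 2, Irf1 and Pgam5 (median 0.35), a share near the 11.2% of all genes called higher, and 4 had a smaller TNF response in KO, among them the RNA sensors Ifih1 (-1.78 ± 0.27) and Ddx58 (-1.39 ± 0.25) and the transcription factor Irf1 (-1.66 ± 0.21) (edgeR adjusted p = 0.0264, 0.0442 and 0.0129). In Rescue against KO, 1 of these 18 rose, Pgam5 (0.37 ± 0.08), and 4 fell (median -0.25), including Ifih1 (-2.60 ± 0.52), Irf9 (-1.90 ± 0.35) and Adar (-1.53 ± 0.34), an RNA-editing enzyme that limits Zbp1. Zbp1 itself did not pass in that comparison (-1.0 ± 1.32, edgeR adjusted p = 0.613), but it was -3.96 without the library named KO_TNF (edgeR adjusted p = 0.000574) and 0.92 without the one named KO (edgeR adjusted p = 0.0684).

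Promoter sequences from RefSeq (GRCm38.p6), from 250 bases before to 50 after the start site, were at hand as 11 windows for 9 of the genes. On both strands they were searched for an NF-kB pattern, GGG and TTCC with any 3 bases between, which 5.555% of 32851 promoters hold. Of the 9 genes Cyld held a match. The 250 bases before the start are shown for Birc3, which had the largest called TNF difference of the 10, and for Cyld, with the match in capitals at 155 bases before the start. They lie at chr9:7873171-7873420 on the minus strand and chr8:88696778-88697027 on the plus strand.
Birc3: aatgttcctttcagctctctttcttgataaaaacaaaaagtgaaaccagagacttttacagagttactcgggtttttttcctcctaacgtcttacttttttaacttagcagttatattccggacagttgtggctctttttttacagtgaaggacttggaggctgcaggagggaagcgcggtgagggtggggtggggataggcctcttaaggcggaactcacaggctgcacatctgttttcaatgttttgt
Cyld: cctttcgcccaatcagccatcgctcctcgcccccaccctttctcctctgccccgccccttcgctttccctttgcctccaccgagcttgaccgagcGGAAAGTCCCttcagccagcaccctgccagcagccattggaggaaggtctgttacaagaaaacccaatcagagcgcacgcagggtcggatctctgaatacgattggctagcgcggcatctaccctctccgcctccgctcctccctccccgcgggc

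The match in Cyld is read on the opposite strand. A STAT pattern, TTCNNNGAA, was in the windows of Ripk1 (8.298% of all promoters), and an IRF pattern, GAAA given 2 times with any 2 bases between, in those of Ripk1 and Cflar (3.443%). These matches describe the letters in these windows only.

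With the labels' groups, 0 of the 10 genes and 0.0% of all genes passed in any of the 4 comparisons with edgeR. At an unadjusted p under 0.05, 0 of the 10 genes were counted, and of all genes 491 for TNF, 29 for KO against WT, 27 for Rescue against KO and 91 for Rescue against WT. DESeq2 called 93, 0, 3 and 9 of all genes in the same order, and 0 of the 10. Zbp1 differed by 3.36 ± 3.05 in KO against WT and Birc3 by 1.71 ± 1.52. Ripk1 differed by 0.70 ± 0.68. The Mlkl exon differed in psi by 0.168 in KO against WT (limma adjusted p = 0.862 in the weighted fit). With these groups the weighted fit called 0 of the 36 nodes of the 10 genes in any comparison, against 0.00924% of all nodes for TNF and 0.0% for KO against WT and for Rescue against KO.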

How the data were processed

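For each of 6 libraries the authors deposited expected counts and TPM per gene, computed with RSEM per the submitters' processing notes. For the library labelled Rescue they were given per transcript and were summed here to genes. Other deposited values were a second quantification, counts of reads per splice junction, and psi as a fraction per splicing node with estimated reads, per the file headers, all made by the authors. Strand, aligner, build and the splicing tool are not given in the sources used here. Node coordinates share exon edges with GENCODE vM21 (GRCm38).

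Expected counts were rounded, filtered with filterByExpr and tested with edgeR 4.0.16 (R 4.3.3, TMM scaling), with genotype and TNF as additive terms, which leaves 2 residual degrees of freedom. The model with a separate TNF term for KO came from earlier work on these data. Psi was tested with limma 3.58.1 on logits clipped to 0.01 and 0.99, for nodes with at least 10 reads. A call also needed a psi difference of 0.1. The fit weighted by reads was chosen after seeing the data. Single-pair ratios used a prior count of 2. The tests were checked on simulated data. DESeq2 1.42.0, its size factors, no filter, the second quantification and leaving out each library were alternatives.

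The 10 genes and the gene lists were chosen with earlier results of these data known. Named genes were the 10, and per list and comparison up to 3 called genes per direction with the largest change. Genes most alike were 3 per gene by Pearson r, for the genes whose TPM varied at least 2-fold. One gene that this rule names is not reported here.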

Additional observations from a re-analysis of the deposited data

Results flagged for a closer look

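The TNF response of Zbp1 differed between the genotypes as named, by the test of the difference itself: the log2 TNF response of KO minus that of WT and Rescue together was -4.87 ± 0.44 (edgeR adjusted p = 0.00364). The library named KO_TNF was 1.60-fold above the one named KO, against ratios of 20.5 in Rescue and 62.4 in WT. The model leaves 1 residual degree of freedom and takes Rescue and WT as alike in their response. With the labels in place of the file names, the 6 libraries would be paired differently. By the same term, 3 of 7 TNF target genes taken as a check had a lower response in KO (Nfkbia -1.73, Ccl2 -1.72 and Vcam1 -1.46), with a median of -1.66 over the 7, so that a lower response was not particular to Zbp1. Markers of dividing cells moved with the genotype as well, and their part in this difference was not tested.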

How the results depend on the processing

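Over the log2 differences of the 10 genes in the 5 comparisons of file-name groups, DESeq2 kept direction and side of the threshold in 45, with 3 newly called and 2 lost. DESeq2 size factors in edgeR kept 49, the second quantification 49 and no filter on low counts 48, and each of the others was a lost call. With 1 library left out, 179 of these values kept both, 18 were newly called and 42 lost the call. One reversed, Zbp1 in KO against WT, at 1.77 without the library named KO_TNF (labelled WT_TNF), against -3.11 without the one named KO (labelled Rescue). Without 1 library, 0 to 6 of the 10 genes were called for TNF (3 to 3619 of all genes), 3 to 6 for KO against WT (1128 to 3989), 0 to 5 for Rescue against KO (0 to 2651) and 0 to 5 for Rescue against WT (0 to 4460), in fits with fewer residual degrees of freedom. Splice nodes of the 10 genes numbered 1 in the weighted fit for KO against WT and 1 for Rescue against KO, and 0 to 1 (the Ripk1 exon part) in unweighted fits without 1 library for these and, with the labels' groups, for Rescue against KO. The median level of the 10 genes was 29.1 TPM, and 33.0 TPM in the second quantification. For the separate TNF term of KO, 175 of all genes were called, against 61 with DESeq2 size factors, 135 with DESeq2, 278 with no filter and 13 in the second quantification. The cause of these differences was not tested. No library could be left out of that model, which would have 0 residual degrees of freedom. No paired analysis was possible because each group has 1 library and there are no replicate numbers to block on, although the additive model itself compares TNF within genotypes and genotypes within treatments. Depth limits Zbp1 and Birc3, which had as few as 15 and 76 reads.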

Other observations

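Birc2 and Birc3 lie beside a cluster of matrix metalloproteinase genes on chromosome 9. Within 500 kb of them, Mmp3 had 1.28 and 0.40 TPM in the libraries named KO_TNF and KO, 77.4 and 3.92 TPM in those named Rescue_TNF and Rescue, and 268 and 11.2 TPM in those named WT_TNF and WT. Mmp3 rose by 4.42 with TNF and fell by 7.19 in KO against WT (edgeR adjusted p = 0.00794 and 0.00253). Yap1, on the other side, had 68.1 to 85.8 TPM and did not pass for TNF (0.10) or for KO against WT (-0.25), and Tmem123 had 39.3 to 70.5 TPM (0.55 and 0.05, neither of which passed). These genes were chosen by position, after the values of Birc2 and Birc3 had been seen.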
